A study of Mus musculus with 8 samples.

Results

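The Hsp70 chaperone system was followed through 10 genes in the cerebral cortex of newborn mice. The genes were chosen by name, with earlier results of these data known, and they are 10 of the 53392 genes in the deposited files. They are the Hsp70 genes Hspa1a, Hspa1b, Hspa2, Hspa5, Hspa8 and Hspa9, the Hsp110 gene Hspa4 and the co-chaperone genes Hspb1, Hsph1 and Dnajb1. The tested animals were Phf6 R342X mutants of the FVB/N background at P0, the day of birth, with 4 libraries. They were set against 4 libraries from wild-type FVB/N mice of the same age, and no library of either genotype had any other treatment named. R342X denotes a premature stop in Phf6, the gene of a nuclear zinc finger protein linked to X-linked intellectual disability. The labels give neither how the allele was made nor its zygosity, and they name neither animals nor litters. If several libraries came from the same animal, the p-values here would cover the spread of these libraries alone, and that spread may be technical.

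Hsp70 proteins bind exposed hydrophobic stretches of unfolded proteins and release them in a cycle driven by ATP. J-domain proteins such as Dnajb1 bring clients and start ATP hydrolysis, and Hsp110 proteins such as Hsph1 and Hspa4 exchange the spent nucleotide. Small heat shock proteins such as Hspb1 hold unfolding clients until Hsp70 takes them over. Some family members are made all the time in each compartment of the cell, Hspa8 in the cytosol, Hspa5 in the endoplasmic reticulum and Hspa9 in mitochondria. Others, above all Hspa1a and Hspa1b, are switched on by heat shock factor 1 when proteins unfold, and neurons are known for a weak induction of them. Here Hspa1a, Hspa1b, Hspb1, Hsph1 and Dnajb1 are called inducible, and Hspa2, Hspa4, Hspa5, Hspa8 and Hspa9 constitutive, although Hspa5 also rises in endoplasmic reticulum stress.

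The sequences around the starts of these genes are shown for the stress elements in them, and because they show how alike Hspa1a and Hspa1b are. The windows below are from RefSeq on GRCm38.p6 and run 5′ to 3′ on the gene's strand, from 250 bases before to 50 bases after the transcription start. Capitals mark matches to the paired units of a heat shock element, GAANNTTC or TTCNNGAA, or in Hspa5 to the endoplasmic reticulum stress element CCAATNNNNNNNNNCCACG. Both strands were searched. Hspa1a lies at chr17:34972107-34972406 and Hspa1b at chr17:34959189-34959488, both on the minus strand. Hspb1 lies at chr5:135887669-135887968 and Hspa5 at chr2:34771840-34772139, both on the plus strand, and Hsph1 at chr5:149636287-149636586 on the minus strand.
Hspa1a: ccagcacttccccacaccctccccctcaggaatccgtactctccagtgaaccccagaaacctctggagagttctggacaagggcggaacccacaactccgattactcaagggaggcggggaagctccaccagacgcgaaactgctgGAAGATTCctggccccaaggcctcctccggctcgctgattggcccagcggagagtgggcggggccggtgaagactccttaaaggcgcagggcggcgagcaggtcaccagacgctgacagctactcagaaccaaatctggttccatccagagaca
Hspa1b: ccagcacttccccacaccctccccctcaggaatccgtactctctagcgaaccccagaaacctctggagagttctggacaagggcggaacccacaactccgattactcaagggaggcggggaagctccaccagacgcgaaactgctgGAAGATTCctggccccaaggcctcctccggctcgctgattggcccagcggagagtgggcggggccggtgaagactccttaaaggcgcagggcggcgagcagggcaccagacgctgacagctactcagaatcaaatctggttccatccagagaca
Hspb1: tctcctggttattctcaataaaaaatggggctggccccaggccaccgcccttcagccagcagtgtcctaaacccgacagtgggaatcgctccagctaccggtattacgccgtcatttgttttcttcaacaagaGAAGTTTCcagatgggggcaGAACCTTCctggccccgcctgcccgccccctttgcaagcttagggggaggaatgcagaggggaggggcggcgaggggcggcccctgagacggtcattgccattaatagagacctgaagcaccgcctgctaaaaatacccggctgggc
Hsph1: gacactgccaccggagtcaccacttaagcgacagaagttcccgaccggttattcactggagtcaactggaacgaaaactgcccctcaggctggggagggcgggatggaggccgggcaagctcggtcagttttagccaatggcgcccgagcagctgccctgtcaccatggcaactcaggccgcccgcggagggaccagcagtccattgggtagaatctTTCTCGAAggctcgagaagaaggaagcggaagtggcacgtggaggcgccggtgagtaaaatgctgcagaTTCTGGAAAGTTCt
Hspa5: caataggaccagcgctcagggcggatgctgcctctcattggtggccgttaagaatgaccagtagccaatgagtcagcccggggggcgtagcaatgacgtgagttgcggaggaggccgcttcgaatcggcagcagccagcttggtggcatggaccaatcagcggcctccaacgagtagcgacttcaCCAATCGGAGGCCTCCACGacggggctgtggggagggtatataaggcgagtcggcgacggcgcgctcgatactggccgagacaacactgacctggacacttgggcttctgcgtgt

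The windows of Hspa1a and Hspa1b were 98.67% identical and differed at 4 positions, counted from 1 at the 5′ end of the window with the Hspa1a base first: C44T, T47C, T249G and C276T. Both carried GAAGATTC, with its first base at −104 from the start. Hspb1 held GAAGTTTC at −117 and GAACCTTC at −97. Hsph1 held TTCTCGAA at −33 and TTCTGGAAAGTTC at 36, and the longer match is a run of 3 units in which the pairs TTCTGGAA and GAAAGTTC overlap. From a second annotated start of Hsph1, the same matches lie at −54 and 15. Hspa5 held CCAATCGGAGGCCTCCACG at −65. Of 8 genes with a window, those 4 inducible genes held a heat shock pair, while the windows of Dnajb1, Hspa2, Hspa4 and Hspa5 held none. Across 32851 promoter windows of the same length, 15.1% held either pair, 0.603% held the run TTCNNGAANNTTC and 0.119% held the endoplasmic reticulum stress element. A match is a description of the letters and not evidence of binding.

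The genes lie apart except for the inducible pair. Hspa1a (ENSMUSG00000091971) is a gene of 1 exon on the minus strand at chr17:34969190-34972156, and Hspa1b (ENSMUSG00000090877), also of 1 exon, lies 9951 bases away at chr17:34956436-34959238. Their coding sequences differ at 8 aligned positions and by 3 bases in gaps, so that 99.43% of the alignment matches when gap bases count as differences. Hspb1 (ENSMUSG00000004951, 3 exons) is at chr5:135887919-135889563, Hsph1 (ENSMUSG00000029657, 18 exons) at chr5:149614287-149636376 and Dnajb1 (ENSMUSG00000005483, 3 exons) at chr8:83608193-83612653. Hspa2 (ENSMUSG00000059970, 1 exon) is at chr12:76404176-76406938, Hspa4 (ENSMUSG00000020361, 19 exons) at chr11:53259814-53300457 and Hspa5 (ENSMUSG00000026864, 8 exons) at chr2:34771970-34777547. Hspa8 (ENSMUSG00000015656, 9 exons) is at chr9:40800984-40810087, where 3 small nucleolar RNA genes lie within it, and Hspa9 (ENSMUSG00000024359, 17 exons) at chr18:34937414-34954357. Coordinates and exons of the main coding transcript are from GENCODE M21 on GRCm38.

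The 8 libraries held 30469745 to 39453169 estimated reads in mutants and 48841467 to 74266937 in wild type, each wild-type library being deeper. Phf6 averaged 42.2 ± 1.93 CPM (counts scaled to library size) in mutants, against 79.0 ± 8.87 CPM in wild type (SD, n = 4 each), and the groups did not overlap. Cortical markers were well above 0, with Neurod6 at 310.9 to 379.7 CPM in mutants and 394.7 to 419.3 CPM in wild type. The sum of the 10 listed was lower in mutants without overlap, at 2064 to 2242 CPM, against 2358 to 2455 CPM in wild type. Of these markers, 7 had a negative and 3 a positive log2 fold change. The part of this difference in the levels of the chaperone genes was not tested. The libraries fell into 2 sets along the first principal component of all genes, which held 35.3% of the variance. Set 1 holds mutant replicates 1 to 3 and wild-type replicate 1, and set 2 holds mutant replicate 4 and wild-type replicates 2 to 4. All 8 libraries kept their set when 96 listed chaperone and stress genes were left out. The sets were drawn from these values and no label names them, so a difference between sets is described here without a test. P-values from fits with the set as a term are descriptions too, because the sets were drawn from the values being fitted. Retained-intron transcripts took 3.67 to 3.87% of reads in set 1 and 4.05 to 4.22% in set 2, and their part in the differences between sets was not tested.

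Hspa8 transcripts far outnumbered all others of the system, and the inducible Hspa1a and Hspa1b were near the bottom. Levels between genes are compared in TPM, a share of all transcripts that is scaled by transcript length. Over the 8 libraries Hspa8, the constitutive cytosolic Hsp70, averaged 874.3 TPM with a range of 723.4 to 1015. Hspa5, the chaperone of the endoplasmic reticulum, averaged 213.3 TPM (163.5 to 264.1), Hspa9, the mitochondrial Hsp70, 156.0 TPM (144.9 to 168.1) and Hspa4, a cytosolic Hsp110, 139.9 TPM (128.1 to 154.5). Hsph1, the heat-inducible Hsp110, averaged 117.3 TPM (97.8 to 130.3) and Dnajb1, a J-domain protein, 36.1 TPM (32.4 to 39.5). The lowest 4 were Hspa1b at 9.66 TPM (6.04 to 14.7), Hspb1 at 5.65 TPM (3.71 to 7.71), Hspa2 at 4.43 TPM (2.19 to 5.90) and Hspa1a at 3.11 TPM (1.73 to 4.74). In that order the ranges of neighbours overlapped, except that Hspa8 stood above Hspa5, Hsph1 above Dnajb1, and Dnajb1 above Hspa1b without overlap. Hspa8 made up 56.8 ± 2.53% of the TPM of all 10 genes in mutants and 55.0 ± 0.97% in wild type (SD, n = 4 each).

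**Figure D1:**
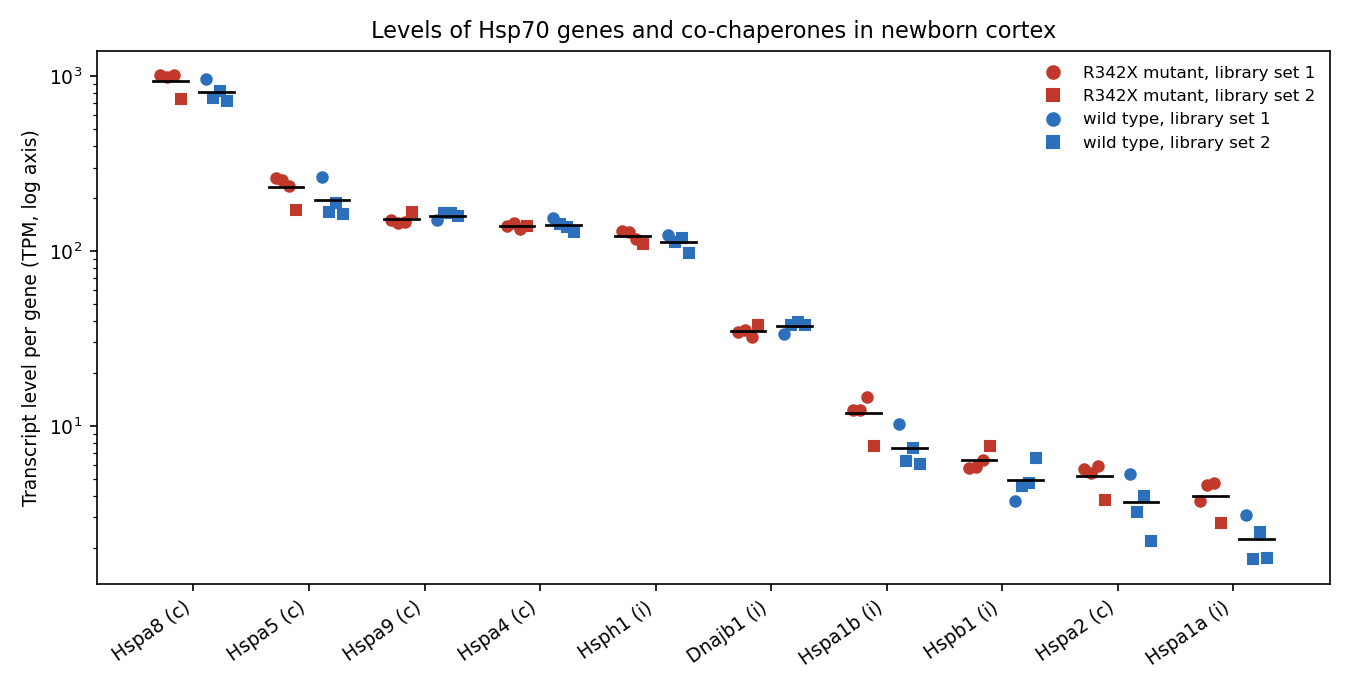
Transcript level of each gene on a log axis in TPM, in mutants (red) and wild type (blue), with circles for set 1, squares for set 2 and bars at the mean of 4 libraries; i marks inducible and c constitutive genes. Hspa8 lies between 723.4 and 1015 TPM in every library, above all other genes, and Hspa1a lies below 5 TPM in every library.

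The level of Hspa8 itself depends on how reads were assigned. Of the 31-base windows in its main coding transcript, 92.0% also occur in transcripts of other genes, and 85.6% occur in Gm15459, a processed pseudogene at chr5:5781615-5783555 on the minus strand. The deposited estimates give Gm15459 110 to 120% as many reads as Hspa8 in each library. The inducible pair share sequence mostly with each other: 63.8% of the windows of Hspa1a occur in Hspa1b, and 67.6% of those of Hspa1b in Hspa1a. Gm10501, a gene listed as antisense RNA in the same cluster, holds 12.1% of the windows of Hspa1a and 11.1% of those of Hspa1b and was given 116 to 331 reads, 52.7 to 153% as many as Hspa1a. Hspb1 shares 61.7% of its windows with the pseudogene Hsp25-ps1, which was given no more than 2.17 reads in a library, and 49.5% with the protein-coding Gm9817, which was given 2 to 13.25 reads, up to 12.8% as many as Hspb1. Hspa9 shares 13.9% with Hspa9-ps1, which was given no more than 1.00 read. Shared windows made up 0.475% of Dnajb1 and 0.12% of Hspa2, and there were 0 in Hsph1, Hspa4 and Hspa5. The sources used here do not say whether strand was used, so reads of Hspa1a cannot be told from those of Gm20481, which overlaps it on the plus strand and was given at most 1 read.

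The inducible Hsp70 genes had higher means in mutants, but no gene of the system passed the genome-wide test between genotypes. With genotype as the only term in edgeR's quasi-likelihood test, 0 of the 10 genes had an adjusted p below 0.05, and the same test called 0.0199% of 20097 genes, 0% higher and 0.0199% lower in mutants. At an unadjusted p below 0.05, 2 of 10 passed (Hspa1a and Hspa1b), against 13.7% of all genes, while DESeq2 called 1 of 10 (Hspa1a) at an adjusted p below 0.05, against 2.48% of 16198 genes (1.41% higher, 1.07% lower). Hspa1a and Hspa1b share most of their sequence windows, so they are not separate counts. None of the 10 had genotype groups that did not overlap, against 2.95% of all genes with every mutant library above every wild-type library and 3.20% with every one below. In contrast, 6 of 10 had every library of set 1 above every library of set 2, against 18.2% of all genes, and 2 of 10 had every one below, against 15.1%. Together 8 of 10 separated the sets, against 33.3% of all genes.

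Hspa1a, a stress-induced cytosolic Hsp70, was at 5.19, 6.39, 6.95 and 4.13 CPM in mutant replicates 1 to 4 and at 4.38, 2.61, 3.77 and 2.69 CPM in replicates 1 to 4 of wild type. The groups overlapped, because mutant replicate 4, the lowest mutant library, was below wild-type replicate 1, the highest of wild type. The means were 5.67 ± 1.26 CPM in mutants, against 3.36 ± 0.86 CPM in wild type (SD, n = 4 each), a fold of 1.69 and a log2 fold change of 0.76 ± 0.21 (SE), with an adjusted p of 0.229 by edgeR's quasi-likelihood test over all genes. By DESeq2 the log2 fold change was 0.75 with an adjusted p of 0.0238. These levels rest on 140 to 277 estimated reads per library.

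Hspa1b, its near-identical neighbour, was at 15.8, 15.9, 19.7 and 10.4 CPM in mutant replicates 1 to 4 and at 13.3, 8.65, 10.4 and 8.47 CPM in replicates 1 to 4 of wild type. The order of libraries was much as for Hspa1a, with mutant replicate 3 highest and mutant replicate 4 inside the range of wild type. Its log2 fold change was 0.60 ± 0.19 (SE), a fold of 1.52, with an adjusted p of 0.26 by edgeR. Summed into 1 feature, which does not depend on how reads were split between these genes, the pair was at 21, 22.3, 26.6 and 14.6 CPM in mutants, against 17.7, 11.3, 14.2 and 11.2 CPM in wild type. The sum gave a log2 fold change of 0.64 ± 0.19 (SE), with an adjusted p of 0.246 by edgeR. Hspa1a took 25.3 ± 1.82% of the TPM of the pair in mutants and 23.0 ± 1.36% in wild type (SD, n = 4 each).

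Within each library set, the mutant libraries lay above wild type for both genes. In set 1, mutant replicates 1 to 3 had 5.19 to 6.95 CPM of Hspa1a against 4.38 CPM in wild-type replicate 1, and in set 2, mutant replicate 4 had 4.13 CPM against 2.61 to 3.77 CPM in wild-type replicates 2 to 4. The differences of the mean log2 CPM between mutants and wild type were 0.48 in set 1 and 0.47 in set 2 for Hspa1a, and 0.36 and 0.19 for Hspa1b. For Hspa1b in set 2 the gap was small, 10.42 CPM in the mutant library against most 10.40 CPM in wild type. With the set as a term beside genotype in edgeR, the log2 fold change was 0.47 ± 0.16 (SE, adjusted p of 0.196) for Hspa1a, 0.28 ± 0.11 (adjusted p of 0.264) for Hspa1b and 0.33 ± 0.11 (adjusted p of 0.183) for their sum. That fit called 0.602% of all genes (0.239% higher, 0.363% lower in mutants) and 0 of the 10, and 3 of the 10 had an unadjusted p below 0.05 (Hspa1a, Hspa1b and Hspb1), again against 13.7% of all genes. In all, 3 of 10 genes (Hspa1a, Hspa1b and Hspb1) had mutants above wild type within each set, against 10.2% of all genes, and 0 of 10 had mutants below, against 11.5%. Hspa1a and Hspa1b are not separate counts here, since 63.8% of the windows of Hspa1a occur in Hspa1b and 67.6% the other way. Set 1 holds 1 wild-type library and set 2 holds 1 mutant library, so each comparison within a set rests on a single library of 1 genotype.

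**Figure D2:**
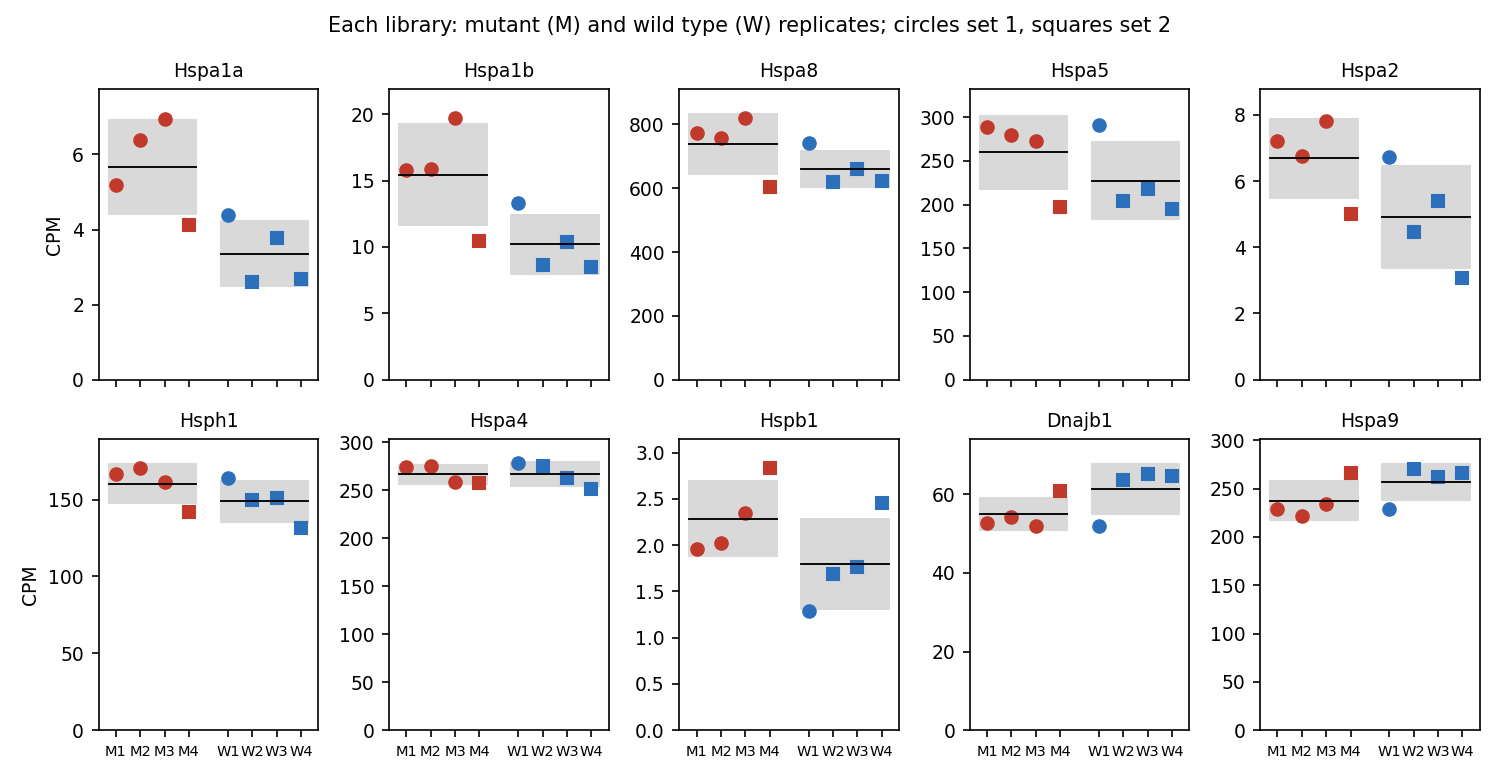
Level of each gene in CPM (linear axes from 0) in mutant replicates M1 to M4 (red) and wild-type replicates W1 to W4 (blue), with circles for set 1 and squares for set 2; the line is the mean and the grey box 1 SD on either side (n = 4). In 6 genes the circles lie above all squares, in Dnajb1 and Hspa9 they lie below, and the red points of Hspa1a, Hspa1b and Hspb1 lie above the blue points of the same shape.

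Leaving out mutant replicate 4 brought the inducible pair past the threshold. Without it, edgeR on genotype called 2 of the 10 genes, Hspa1a at a log2 fold change of 0.88 (adjusted p of 0.0428) and Hspa1b with 0.75 (adjusted p of 0.0363). That fit also called 3.58% of all genes (1.80% higher, 1.78% lower in mutants), and its mutants were then all of set 1.

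The constitutive cytosolic Hspa8 was at 772.1, 757.0, 820.2 and 602.5 CPM in mutant replicates 1 to 4 and at 742.6, 618.4, 660.0 and 621.5 CPM in replicates 1 to 4 of wild type. Mutant replicate 4 was the lowest of the 8 libraries, and wild-type replicate 1 stood close to the other mutants. The log2 fold change was 0.16 ± 0.09 (SE, adjusted p of 0.451 by edgeR), and 0.003 ± 0.047 with the set as a term (adjusted p of 0.988). Summed with Gm15459, Hspa8 was at 1638, 1616, 1729 and 1296 CPM in mutants, against 1625, 1360, 1396 and 1307 CPM in wild type, a log2 fold change of 0.14 ± 0.09 (SE, adjusted p of 0.492 by edgeR). Adding the pseudogene changed the level of Hspa8 more than its difference between genotypes.

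Hspa5, which folds secreted and membrane proteins and is also known as BiP, differed between the sets by more than its spread within them. It was at 288.7, 280.0, 273.0 and 197.8 CPM in mutant replicates 1 to 4 and at 291.5, 203.9, 218.4 and 195.1 CPM in replicates 1 to 4 of wild type. Its 4 libraries of set 1 held 273.0 to 291.5 CPM and those of set 2 held 195.1 to 218.4 CPM. The log2 fold change between genotypes was 0.19 ± 0.14 (SE, adjusted p of 0.535 by edgeR) on genotype alone and −0.06 ± 0.05 (adjusted p of 0.643) with the set as a term. Within the sets the differences of mean log2 CPM were −0.06 and −0.06.

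Hspa9, which pulls proteins into mitochondria and folds them there, ran the other way between sets. It was at 228.5, 221.5, 233.9 and 266.7 CPM in mutant replicates 1 to 4 and at 228.9, 270.0, 262.5 and 266.1 CPM in replicates 1 to 4 of wild type. The 4 libraries of set 1 were the lowest, whichever their genotype. The log2 fold change was −0.11 ± 0.07 (SE, adjusted p of 0.477 by edgeR), and −0.002 ± 0.037 with the set as a term (adjusted p of 0.991).

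Hspa2, a family member best known for its role in the testis, was at 7.20, 6.75, 7.80 and 5.02 CPM in mutant replicates 1 to 4 and at 6.73, 4.47, 5.40 and 3.08 CPM in replicates 1 to 4 of wild type. Wild-type replicate 1 was just below the lowest mutant of its set, and mutant replicate 4 lay inside the range of wild type in set 2. The log2 fold change was 0.45 ± 0.22 (SE, adjusted p of 0.392 by edgeR), and 0.16 ± 0.16 with the set as a term (adjusted p of 0.741). Only 170 to 397 estimated reads per library lie behind these values.

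Of the co-chaperones, Hsph1 was at 166.9, 170.5, 161.7 and 142.0 CPM in mutant replicates 1 to 4 and at 163.9, 149.4, 151.2 and 131.4 CPM in replicates 1 to 4 of wild type. The groups overlapped, with wild-type replicate 1 among the mutants of its set and mutant replicate 4 among the wild type of its own. Its log2 fold change was 0.11 ± 0.08 (SE, adjusted p of 0.523 by edgeR) on genotype alone and 0.001 ± 0.052 (adjusted p of 0.996) with the set as a term. Hspa4, which serves Hsp70 in the same way, varied little, with 257.7 to 275.6 CPM in mutants, against 251.1 to 278.0 CPM in wild type. Its log2 fold change was −0.001 ± 0.047 (SE, adjusted p of 0.992 by edgeR), and its sets overlapped.

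Dnajb1, the J-domain partner of cytosolic Hsp70 and itself a heat shock gene, did not follow Hspa1a and Hspa1b. Mutant replicates 1 to 4 held 52.7, 54.2, 51.9 and 60.8 CPM, and wild-type replicates 1 to 4 held 52.0, 63.6, 65.25 and 64.6 CPM. The 4 libraries of set 1 were the lowest, and mutant replicate 4 lay next to wild type of its set. The log2 fold change was −0.16 ± 0.08 (SE, adjusted p of 0.4 by edgeR), and −0.03 ± 0.04 with the set as a term (adjusted p of 0.823).

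Hspb1, the small heat shock protein, was at 1.96, 2.02, 2.34 and 2.83 CPM in mutant replicates 1 to 4 and at 1.29, 1.69, 1.77 and 2.46 CPM in replicates 1 to 4 of wild type. Its sets overlapped, but within each the mutants were higher, with differences of mean log2 CPM of 0.69 in set 1 and 0.53 in set 2. The log2 fold change was 0.34 ± 0.20 (SE, adjusted p of 0.465 by edgeR) on genotype alone and 0.61 ± 0.17 (adjusted p of 0.136) with the set as a term. It rests on 62 to 160 estimated reads per library, the fewest of the 10 genes. Hspb1 is also made by vessels and glia, and the summed level of 8 endothelial and pericyte markers was 316.2 to 420.0 CPM in mutants, against 301.2 to 369.0 CPM in wild type. Of these 8 markers, 7 had a positive log2 fold change, and their part in the level of Hspb1 was not tested. In bulk tissue, a difference in the number of cells of a type and a difference in RNA per cell cannot be told apart.

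**Figure D3:**
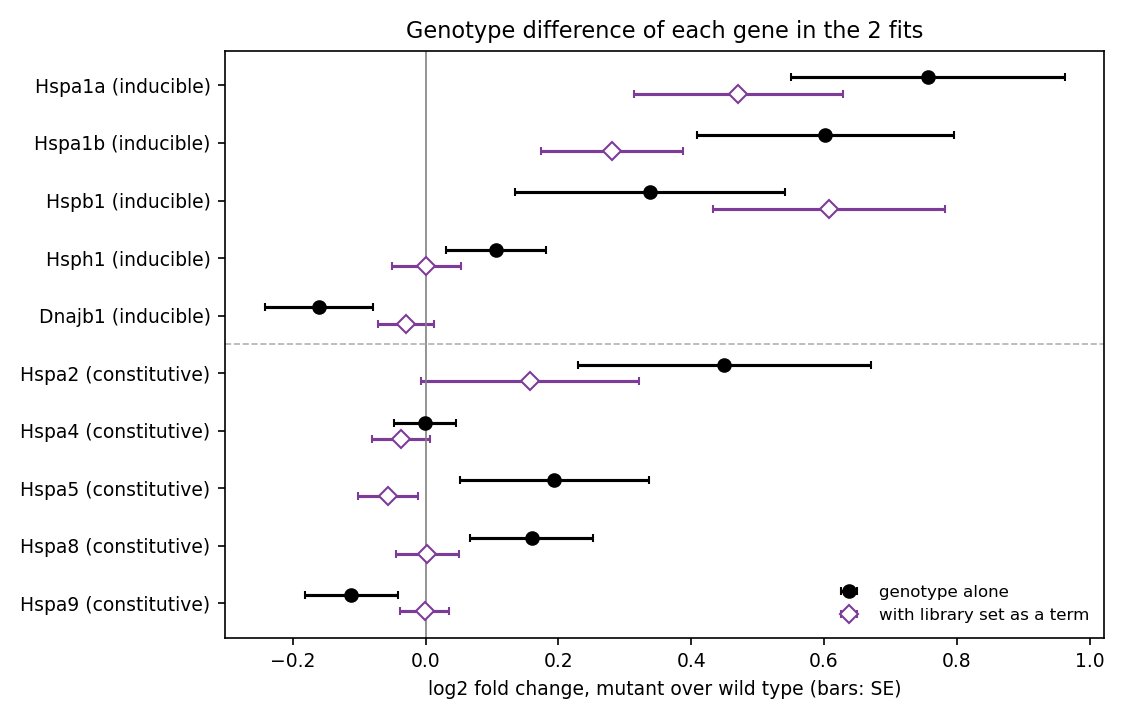
Log2 fold change of each gene, mutant over wild type, with its SE (n = 4 libraries each), for genotype alone (black circles) and with library set as a term (open diamonds). With the set as a term, 7 genes lie within 0.20 of 0, and Hspa1a at 0.47, Hspa1b at 0.28 and Hspb1 at 0.61 lie above.

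By class, 4 of 5 inducible genes had a positive log2 fold change with a median of 0.34, and 3 of 5 constitutive genes with a median of 0.16, beside a median of 0.001 over all tested genes. When the set was a term, the medians were 0.28 for inducible genes, −0.002 for constitutive genes and −0.004 over all genes. The order of the medians rested on single libraries: without mutant replicate 4 they were 0.22 for inducible and 0.25 for constitutive genes, and without wild-type replicate 1 they were 0.22 and 0.23. With Hspa1a and Hspa1b summed into 1 gene, the inducible median was 0.22. None of these genes passed the threshold in either fit, and the classes were not tested against each other. The inducible share of the TPM of all 10 genes was 10.9 ± 0.72% in mutants and 11.2 ± 0.69% in wild type (SD, n = 4 each). Both parts had higher means in mutants, the inducible genes with 178.8 TPM against 164.7 in wild type, and the constitutive genes with 1464 TPM against 1312. Hsph1 and Dnajb1 make up most of the inducible part.

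The share of inducible in cytosolic Hsp70 transcripts was higher in each mutant library than in any wild-type library, but by a gap too narrow to rest on. Hspa1a and Hspa1b together made up 1.56, 1.70, 1.89 and 1.40% of the summed TPM of Hspa1a, Hspa1b and Hspa8 in mutant replicates 1 to 4. In wild-type replicates 1 to 4 the share was 1.38, 1.06, 1.20 and 1.07%. The lowest mutant, replicate 4, and the highest wild type, replicate 1, were side by side at 1.40 and 1.38%. Behind these shares lie 140 estimated reads of Hspa1a and 353 of Hspa1b in mutant replicate 4, against 214 and 649 in wild-type replicate 1. The gap was not compared with the counting error of so few reads. Within set 1 the mutants had 1.56 to 1.89% against 1.38%, and within set 2 the mutant had 1.40% against 1.06 to 1.20%. The means were 1.64 ± 0.21% in mutants and 1.18 ± 0.15% in wild type (SD, n = 4 each), and 0.87 ± 0.12% in mutants and 0.62 ± 0.07% in wild type when the TPM of Gm15459 was added to that of Hspa8. No test is given, since the genes were chosen with results of these libraries known. How many other ratios of genes separate the genotypes was not computed.

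The ratio of Dnajb1 to Hspa8 TPM followed the sets instead. It was 3.37, 3.60, 3.21 and 5.10% in mutant replicates 1 to 4 and 3.51, 5.08, 4.81 and 5.22% in wild-type replicates 1 to 4. The summed TPM of all 10 genes was 1759, 1721, 1706 and 1388 in mutants and 1707, 1384, 1486 and 1327 in wild type, so that set 1 also carried more Hsp70-system transcript as a whole.

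Transcripts that do not code for the full protein took part of several levels. Coding transcripts made up 63.8 to 67.8% of the Hspa8 TPM, 57.3 to 69.5% of Hsph1, 67.5 to 78.1% of Hspa4, 78.0 to 81.5% of Hspa5 and 94.7 to 97.6% of Hspa9. Hspa8-209, a processed transcript, took 32.8 ± 1.04% of the Hspa8 TPM in mutants and 34.0 ± 1.65% in wild type (SD, n = 4 each). Hspa4-202, which retains an intron, took 22.9 ± 3.59% of the Hspa4 TPM in mutants and 27.4 ± 0.86% in wild type. Hspa9-204, another retained-intron transcript, was at 0.78, 0.96, 1.10 and 2.31 TPM in mutant replicates 1 to 4 and at 0.66, 3.80, 4.72 and 4.18 TPM in wild-type replicates 1 to 4. Its 4 lowest libraries were those of set 1. These shares are estimates over transcripts that share most of their sequence.

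The wider chaperone and stress genes gave no call between genotypes. In edgeR's test on genotype, 0 genes were called in each of 8 lists, read against the 0.0199% of all genes called. Of other Hsp70 and Hsp110 genes, 6 of 7 were tested, 4 with a positive and 2 with a negative log2 fold change and a median of 0.05. Hspa1l, the third gene of the Hspa1 cluster, had too few counts to test. The smallest p in that list was that of Hspa12b, a distant family member of vessels, with 0.32 ± 0.13 (SE, adjusted p of 0.323 by edgeR). Of 19 J-domain genes, 10 were positive and 9 negative with a median of 0.02, and Dnajc2, a ribosome-bound J-domain protein, had the smallest p with −0.10 ± 0.04 (adjusted p of 0.361).

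The 14 genes of nucleotide exchange factors and other Hsp70 partners had a median log2 fold change of 0.02, with 8 positive. Bag3, a co-chaperone that links Hsp70 to small heat shock proteins and autophagy, had the smallest p with 0.22 ± 0.13 (SE, adjusted p of 0.467 by edgeR). The Hsp90 system and the chaperonins, which take over clients from Hsp70, had a median of −0.02 over 13 genes, 6 of them positive, and Cct2, a chaperonin subunit, had −0.11 ± 0.06 (adjusted p of 0.414). Other small heat shock proteins had a median of −0.03 over 7 tested of 8 genes, 3 of them positive. Cryab, the αB-crystallin gene, averaged 7.20 ± 0.53 CPM in mutants, against 5.75 ± 0.46 CPM in wild type (SD, n = 4 each). Its log2 fold change was 0.32 ± 0.10 (adjusted p of 0.246). Every mutant library of Cryab lay above every wild-type library, as in 2.95% of all genes. Going the other way, 1 of the other Hsp70 and Hsp110 genes and 2 of the J-domain genes had every mutant library below, as in 3.20% of all genes. Of the heat shock factors, 4 of 5 were tested with a median of 0.06, 2 of them positive, and Hsf2 had the smallest p with −0.17 ± 0.07 (adjusted p of 0.31). Hsf1, the main factor behind heat induction, averaged 29.2 ± 1.95 CPM in mutants, against 26.6 ± 2.25 CPM in wild type, and its log2 fold change was 0.14 ± 0.07 (adjusted p of 0.428). It followed the library sets, with 29.59 to 30.7 CPM in set 1 and 24.91 to 26.35 CPM in set 2. With the set as a term its log2 fold change was 0.03.

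Genes of endoplasmic reticulum stress differed mostly between the library sets, as Hspa5 did. Of 16, 14 had a positive log2 fold change with a median of 0.15, and 10 had every library of set 1 above every library of set 2 while 1 had every one below, read against 18.2% and 15.1% of all genes. With the set as a term the median was −0.02. Xbp1, a transcription factor of that response, averaged 59.1 ± 13.9 CPM in mutants, against 45.2 ± 12.2 CPM in wild type, with a log2 fold change of 0.39 ± 0.20 (SE, adjusted p of 0.412 by edgeR). Set 1 held 63.25 to 68.13 CPM of Xbp1 and set 2 held 36.35 to 41.8 CPM, and with the set as a term its log2 fold change was 0.02. The mitochondrial unfolded protein response genes had a median of −0.03 over 9 genes, 3 of them positive, and Hspe1, the partner of the mitochondrial chaperonin, had −0.09 ± 0.06 (adjusted p of 0.51). None of these 9 stood higher in set 1, and 3 stood lower, the direction of Hspa9.

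**Figure D4:**
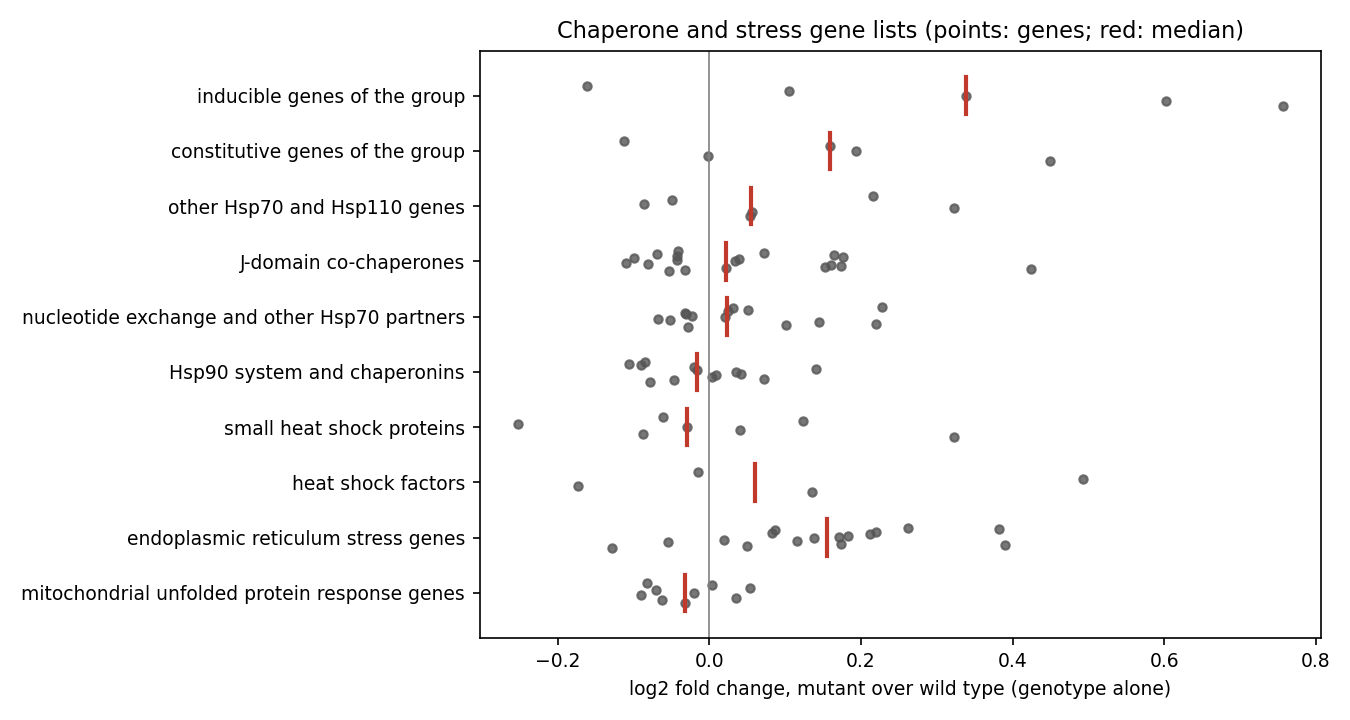
Log2 fold change, mutant over wild type, of each tested gene (grey points) in the inducible and constitutive genes and in 8 lists of chaperone and stress genes, with the median in red. The medians of inducible genes at 0.34, constitutive genes at 0.16 and endoplasmic reticulum stress genes at 0.15 lie to the right, and the other medians lie between −0.03 and 0.06.

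Genes that respond to neuronal activity or to handling of tissue had mostly positive log2 fold changes, beside those of the inducible Hsp70 genes. Of 18 immediate early genes, 17 had a positive log2 fold change with a median of 0.32, and 9 stood higher and 2 lower in set 1, read against 18.2% and 15.1% of all genes. With the set as a term the median was 0.17. None was called by edgeR, and Fos had the smallest p with 0.49 ± 0.13 (SE, adjusted p of 0.232). In that test on genotype, 8 of 18 had an unadjusted p below 0.05, against 13.7% of all genes. Every mutant library lay above every wild-type library in 2 of 18, against 2.95% of all genes, and below in 0, against 3.20%. Their part in the levels of Hspa1a and Hspa1b was not tested. Among markers of other cells, 7 astrocyte and radial glia genes summed to 1039 to 1165 CPM in mutants, against 984.6 to 1082 CPM in wild type. Microglia markers summed to 84.0 to 97.2 CPM in mutants, against 75.2 to 84.9 CPM in wild type, meningeal fibroblast markers to 720.1 to 1206 CPM in mutants, against 662.5 to 859.0 CPM in wild type, and choroid plexus and ependyma markers to 551.0 to 809.7 CPM in mutants, against 519.7 to 700.6 CPM in wild type. Red blood cell markers summed to 1032 to 2013 CPM in mutants, against 567.3 to 2679 CPM in wild type, and markers of neighbouring regions to 115.5 to 125.5 CPM in mutants, against 113.8 to 132.1 CPM in wild type. None of these markers was called on genotype alone, the smallest adjusted p by edgeR in each list being that of Neurod6 at 0.18 for cortex, Slc1a3 at 0.246 for astrocytes and radial glia, C1qc at 0.371 for microglia, Acta2 at 0.244 for vessels, Hbb-bt at 0.666 for red blood cells, Aldh1a2 at 0.344 for meninges, Foxj1 at 0.337 for choroid plexus and ependyma, and Lhx9 at 0.46 for neighbouring regions. With the set as a term in edgeR, the fit in which Hspb1 had its larger fold, 1 of 10 cortical, 1 of 8 vessel and 2 of 7 meningeal markers were called, against 0.602% of all genes. They were Neurod6 at a log2 fold change of −0.32 (adjusted p of 0.0305), Acta2 of vessel walls at 0.89 (adjusted p of 0.0422), and Aldh1a2 at 0.48 (adjusted p of 0.011) and Igf2 at 0.57 (adjusted p of 0.0295) of the meninges. Their part in the level of Hspb1 was not tested. The sets in that fit were drawn from these same values, so its calls and adjusted p-values are descriptions.

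By p-value, the authors' deposited table places Hspa1a, Hspb1 and Hspa1b first among the 10. They are the 3 genes with an unadjusted p below 0.05 when the set was a term in edgeR. On genotype alone, edgeR's smallest unadjusted p-values were 0.0041 for Hspa1a, 0.0104 for Hspa1b and 0.068 for Hspa2, with 0.126 for Hspb1. The deposited table is of the same genotype comparison, so it is not separate evidence. In the authors' deposited table, Hspa1a has a p-value of 0.00712 and an adjusted p-value of 0.137. For Hspb1 the authors' deposited table gives a p-value of 0.00994 and an adjusted p-value of 0.163, and for Hspa1b 0.0169 and 0.222. Its log2 fold changes are small, at 0.04 for Hspa1a, 0.07 for Hspa1b and 0.03 for Hspb1 in the authors' deposited table, where Phf6 is at −0.93. The other 7 genes have log2 fold changes of −0.04 to 0.01 and adjusted p-values of 0.6 to 0.996 in the authors' deposited table. Neither the model behind the authors' deposited table nor any shrinkage of its folds is stated in the labels or its header.

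Outside the system, the genes whose pattern over the 8 libraries was most like that of the summed Hspa1a and Hspa1b were Gatad1, Pde8b, Vat1, Map7d2 and Mgll. Likeness was Pearson's correlation of log2 CPM, searched over 10938 genes and given as a description, and it was 0.988 to 0.993 for these 5. For Hspa8 they were Prkacb, Tspyl4, Cacnb3, Ccm2 and Vwc2l, with 0.990 to 0.996. All 10 stood higher in every library of set 1 than in any of set 2, so that the 8 libraries give far fewer than 8 separate points here, and none was called between genotypes by edgeR.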

How the data were processed

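Messenger RNA of newborn mouse cortex was sequenced in 4 R342X mutant and 4 wild-type libraries after TRIzol extraction of frozen tissue, per the labels' protocols. Per the file headers, the deposited files hold 1 estimated count (expected count) and 1 TPM value for each of 136202 transcripts, and TPM is scaled by effective transcript length. The submitters' processing notes name Salmon 0.12.0, DESeq2 and the GRCm38 build. How reads were filtered and whether strand was used is not stated in the labels or headers. The authors' deposited table of their own comparison holds a mean signal (normalized counts), a log2 fold change with its error, a p-value and an adjusted p-value per gene, per its file header.

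The counts were added up over the transcripts of a gene and rounded, and TPM values were added up likewise. Genotypes were compared over 20097 genes that passed edgeR's default filter, by the two-sided quasi-likelihood F test of edgeR 4.0.16 (R 4.3.3) after TMM scaling. Benjamini-Hochberg adjusted p-values below 0.05 over all tested genes counted as calls. The SE of a fold was computed from it and its F value. Differences within a set are of mean log2 CPM with a prior count of 2. Alternatives were DESeq2 1.42.0 (Wald test or size factors), no filter, the replicate number as a block, library set as a term, each library left out, limma 3.58.1 on log2 of TPM plus a pseudocount of 0.5, and the summing of Hspa1a with Hspa1b. The sum of Hspa8 with Gm15459 was added after seeing the data. The edgeR test was tried on simulated counts with known changes. Unlike these data, the simulated counts had the same spread setting for every gene and no library sets.

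All 10 genes were matched to GENCODE M21 by identifier, 9 of them with the same version. RefSeq promoter windows on chromosome 18, where Hspa9 lies, were left out before the search, so Hspa9 could have none. Windows were found for 8 genes. Named genes were the 10, Phf6, the called genes of each list or else the one with the smallest p, and the 5 genes most like the Hspa1 pair and Hspa8 with an average log2 CPM of at least 3. Hsf1, Hspa1l, Igf2, the genes sharing sequence and the transcripts named were chosen after their values were seen. The genes, lists and library sets were chosen with earlier results of these data known.

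Libraries held 30469745 to 74266937 estimated reads, so the genes of few reads (Hspb1, Hspa1a, Hspa2 and Hspa1b) are the least precise. The replicate numbers of the labels enter no fit other than the block alternative.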

Additional observations from a re-analysis of the deposited data

Results flagged for a closer look

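Among 20 groups of 4 libraries (10 genes in each genotype), 1 held a library far from the others. Dnajb1 was at 52.0 CPM in wild-type replicate 1, against 63.6 to 65.25 CPM in the other wild-type libraries. The gap took up a share of 0.872 of the range, above Dixon's limit for 4 samples. Chance flags about 1 in 20 groups. Wild-type replicate 1 is the wild-type library of set 1, and the mutants of that set held 51.9 to 54.2 CPM.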

How the results depend on the processing

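The number of genes called across the genome was 4 on genotype alone, 401 with DESeq2, 13 without a filter on low counts, 20 with the replicate number as a block, 121 with the library set as a term and 3 to 720 with 1 library left out, 720 being without mutant replicate 4, and 13 being without wild-type replicate 1. Of the 10 genes, 1 was called with DESeq2 (Hspa1a, log2 fold change 0.75, adjusted p of 0.0238), 0 to 2 with 1 library left out, and 0 with the replicate block. The 2 were Hspa1a at 0.88 and Hspa1b at 0.75, without mutant replicate 4. With 1 library left out, Hspa1a ranged from 0.65 to 0.91 (adjusted p of 0.0428 to 0.6) and Hspa1b from 0.47 to 0.76 (adjusted p of 0.0363 to 0.623). The inducible median was 0.22 to 0.52 with 1 library left out, 0.52 being without wild-type replicate 4, and the constitutive median 0.11 to 0.25. The constitutive median was the higher one without mutant replicate 4 (0.219 for inducible, 0.2455 for constitutive genes) and without wild-type replicate 1 (0.2202 and 0.2265), and it was −0.0016 with the set as a term. Hspa5 turned to −0.0564 (adjusted p of 0.643) with the set as a term. Hspa4, near 0 throughout, ranged from −0.0293 to 0.0254 with 1 library left out and turned positive in 4 of those fits (0.0192 in the fit lacking mutant replicate 3, 0.0147 lacking mutant replicate 4, 0.0254 lacking wild-type replicate 1 and 0.014 lacking wild-type replicate 2). The other 6 genes kept their direction and stayed uncalled in 14 or 15 alternatives each, but their size moved. With 1 library left out, Hspb1 ranged from 0.22 (without mutant replicate 4, and likewise without wild-type replicate 1) to 0.53 (without wild-type replicate 4), Hsph1 from 0.05 (without wild-type replicate 4) to 0.16 (without wild-type replicate 1, and likewise without mutant replicate 4) and Hspa2 from 0.28 (without wild-type replicate 4) to 0.64. Hspa8 ranged from 0.11 to 0.25 (without mutant replicate 4), Hspa9 from −0.17 (without mutant replicate 4) to −0.08, Dnajb1 from −0.23 to −0.13 and Hspa5 from 0.13 (without wild-type replicate 4) to 0.34 (without wild-type replicate 1). The cause of these shifts was not tested.

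Whether the replicate numbers pair the libraries is not given in the labels and could not be settled from 4 numbers. Deviations from the group means correlated at 0.244, −0.027, −0.085 and 0.318 between libraries of the same number, and 4 of 8 libraries correlated best with their own number. With the number as a block in edgeR, the adjusted p was 0.0726 for Hspa1a and 0.0719 for Hspa1b, and 20 genes were called across the genome. The counts of Hspb1 (62 to 160 reads) and Hspa1a (140 to 277 reads) and the split of Hspa8 from Gm15459 limit what can be read from single genes.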
